A study of Homo sapiens with 16 samples.

Results

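Promoters of noncoding transcripts were taken as the accessible windows whose annotation column begins with a transcription start of a RefSeq noncoding RNA, and their histone H3K27 acetylation (H3K27ac) was followed. Of 151654 windows of 1000 bp in the table, 3129 (2.06%) fulfilled this rule, and their annotated transcripts belong to 2552 genes. At 1805 of these windows the nearest promoter listed was the same transcript, and at the others it was not. H3K27ac ChIP-seq was available for 4 groups of 2 libraries from THP-1, a human monocytic leukemia line. WT cells are labelled as carrying Cas9 only, whereas the protocol in the labels names a control sgRNA for them, USP18-/- cells were a line deleted by CRISPR and expanded from single sorted cells, and each genotype was left untreated or received IFNα at 1000 U/ml for 6 h. USP18 loss and any trait of the edited line therefore cannot be told apart in the genotype comparisons. Libraries of a group are described as independent biological replicates in the study, the labels do not say whether they were separate cultures, and p-values measure the spread between them. The annotated transcripts were classed by gene symbol and RefSeq type. They comprised 773 windows of antisense or divergent transcripts, 771 of noncoding transcripts of coding genes and 400 of long intergenic noncoding RNAs (LINC). The rest were 315 windows of pseudogenes, 296 of microRNAs or their hosts, 78 of snoRNAs or their hosts and 496 of other noncoding genes.

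A promoter that drives an RNA without protein product carries the same acetylation as a coding promoter when it is active. Long noncoding RNAs may act where they are made or elsewhere in the cell, whereas microRNAs and many snoRNAs are cut out of a longer host transcript whose promoter can lie far from the mature RNA. Some snoRNAs, U3 among them, have promoters of their own. IFNα signals through its receptor to the transcription factor complex ISGF3, which binds the IFN-stimulated response element (ISRE), and USP18 restrains this receptor. A window here marks a transcript start of the annotation and not RNA output, which was not measured in these files. H3K27ac around a start shared with a coding gene cannot be assigned to either transcript, and of the 2885 windows tested, 1734 (60.1%) had a coding start within 2000 bp of their centre. The remaining 1151 windows had no annotated coding start within 2000 bp, and only in this sense are they said below to stand apart. A coding start can still lie a little farther off.

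Values are counts per 1000000 tags after scaling by trimmed mean of M-values (CPM). Between 9046141 and 12935453.5 tags fell in the windows per library. A window was tested when at least 2 libraries held at least 10 counts, which left 123276 windows in all. Windows were called at an absolute log2 fold change over 1 with an adjusted p below 0.05. The p-values came from quasi-likelihood tests in edgeR, with the Benjamini-Hochberg procedure over the tested windows. Each SE is the size of the log2 fold change divided by the square root of the F statistic of its test. It is thus derived from the test and can be too small at few tags. The SEs of 2 effects need not combine to that of their difference. Promoter windows of 5 of 8 myeloid markers were in the table, with means of 92.2 CPM at SPI1, 11.1 at CD33, 10.6 at ITGAM, 10.5 at LYZ and 2.23 at CSF1R. None of the T cell, erythroid, epithelial and fibroblast markers CD3E, GATA1, EPCAM and COL1A1 had a promoter window. The window 111 bp from the USP18 start rose with IFN by 1.09 (SE 0.16) in WT and 2.44 (SE 0.14) in USP18-/- cells on the log2 scale, and acetylation there does not test the deletion.

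ISRE letters were read from the hg38 sequence of the windows that carry the IFN result, to show which bases a reader can look up beside the values. Each stretch runs 5′ to 3′ on the strand that holds the letters GAAANNGAAA, which are in capitals with 10 bases on either side. The match in the IFI44 window (chr1:78649761-78649790, minus strand) lies outside annotated exons and introns. Both matches of the IFITM3 window (chr11:320876-320905 and chr11:320893-320922, minus strand) lie in an intron of IFITM3. The match of the PHF11 window (chr13:49495916-49495945, plus strand) lies in a PHF11 exon, and that of the RNF4BP window (chr15:44728834-44728863, plus strand) is intergenic. The LINC02068 window holds 4 matches on the plus strand, chr3:172596138-172596167, chr3:172596154-172596183, chr3:172596177-172596206 and chr3:172596197-172596226, all intergenic. GBP1P1 (chr1:89407573-89407602, minus strand) has an intergenic match, LINC01010 (chr6:134437198-134437227, plus strand) an intronic one, the first of its 2, and PSMB8-AS1 (chr6:32844032-32844061, plus strand) one in an exon of PSMB8.
IFI44: tcagagaaagGAAACTGAAActcagtgtgc
IFITM3 match 1: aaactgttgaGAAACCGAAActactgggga
IFITM3 match 2: caaatgccagGAAAAGGAAActgttgagaa
PHF11: ccagatttaaGAAAACGAAAcctagtgcag
RNF4BP: tggctttgaaGAAAGAGAAAccaggacggg
LINC02068 match 1: atactcccaaGAAATAGAAAcgaatagaaa
LINC02068 match 2: gaaacgaataGAAATAGAAAtctaatagaa
LINC02068 match 3: aatagaactaGAAATAGAAAtatttcccaa
LINC02068 match 4: tatttcccaaGAAATAGAAAgtaaaactga
GBP1P1: agagtaatatGAAACTGAAAgtacttcatt
LINC01010: atgcagatctGAAACTGAAActattgcaaa
PSMB8-AS1: aggaggaagtGAAAGCGAAAgccacagatc

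Mature microRNAs of windows described in the results are given from RefSeq (GRCh38.p14), 5′ to 3′, with the seed (bases 2 to 8), the part that pairs with targets, in capitals. They show which microRNAs such a window could bear on, whereas no mature RNA was measured. In the MIR181A2HG host both miR-181a-5p and miR-181b-5p share the seed ACAUUCA. MIR4500HG holds miR-4500, whose seed GAGGUAG is that of the let-7 family members inside MIR100HG and MIR99AHG.
miR-4258: cCCCGCCAccgccuugg
miR-4734: gCUGCGGGcugcggucagggcg
miR-3945: aGGGCAUAggagaggguugauau
miR-1914-3p: gGAGGGGUcccgcacugggagg
miR-1284: uCUAUACAgacccuggcuuuuc
miR-181a-5p: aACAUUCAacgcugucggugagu
miR-181b-5p: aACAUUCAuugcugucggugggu
miR-3189-3p: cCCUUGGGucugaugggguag
miR-9-5p: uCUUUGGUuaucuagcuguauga
miR-550a-3p: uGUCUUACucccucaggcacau
miR-4500: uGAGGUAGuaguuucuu
miR-7-2-3p: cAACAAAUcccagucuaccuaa
miR-155-5p: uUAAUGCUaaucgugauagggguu
miR-146a-5p: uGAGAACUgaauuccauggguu

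In WT cells, IFN raised H3K27ac at 7 windows of 6 genes (0.243% of those tested) and lowered it at 0. Across all tested windows 0.343% were higher and 0.0389% lower. At an unadjusted p under 0.05, 126 noncoding windows were higher and 98 lower, and DESeq2 called 6 higher and 0 lower. The median log2 fold change was -0.01 over the noncoding windows and -0.01 over all windows. The genes were IFI44, IFITM3, LY6E-DT, LINC01914, RNF4BP and PHF11, and 6 of the 7 windows had a coding start within 2000 bp.

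IFI44 is an IFN-induced gene with a noncoding transcript, and the window centre lies 48 bp from its coding start. This window on chromosome 1 from 78649283 to 78650283 gave 0.8295 and 0.91 CPM in untreated WT, 5.76 and 4.84 in IFN treated WT, 0.788 and 0.5803 in untreated USP18-/-, and 22.3 and 24.1 in IFN treated USP18-/- cells. Both IFN treated groups lay above both untreated groups. The IFN effect was 2.59 (SE 0.33, edgeR adjusted p = 1.4e-08) on the log2 scale in WT and 5.05 (SE 0.26, edgeR adjusted p = 5.4e-29) in USP18-/- cells. IFITM3 encodes a membrane protein that restricts virus entry, and its window on chromosome 11 from 320395 to 321395 gave 5.08 and 5.64 CPM in untreated WT, 25.5 and 22.5 in IFN treated WT, 5.43 and 5.22 in untreated USP18-/-, and 69.6 and 60.01 in IFN treated USP18-/- cells. The effects were 2.16 (SE 0.16, edgeR adjusted p = 3.5e-18) in WT and 3.602 (SE 0.14, edgeR adjusted p = 7.5e-36) in USP18-/- cells. LY6E-DT is divergent to LY6E, another IFN-induced gene, and its 2 overlapping windows lay 332 bp and 577 bp from the LY6E start. The second gave 3.53 and 3.46 CPM in untreated WT, 10.7 and 13.2 in IFN treated WT, 1.23 and 1.93 in untreated USP18-/-, and 24.4 and 23.3 in IFN treated USP18-/- cells. Here untreated USP18-/- cells lay below untreated WT cells (log2 -1.15, SE 0.31, edgeR adjusted p = 0.0018), a call that was lost without the first untreated USP18-/- library (-0.85, edgeR adjusted p = 0.076), and IFN treated USP18-/- cells lay above all others. The IFN effects were 1.77 (SE 0.21, edgeR adjusted p = 2.1e-09) and 3.92 (SE 0.22, edgeR adjusted p = 7.7e-27), and the other window gave 1.52 and 3.55. That other window was also lower in untreated USP18-/- than in untreated WT cells, at -1.31 to -1.03 without any 1 library.

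LINC01914 was the 1 riser in WT cells without a coding start nearby, as its window on chromosome 2 from 41933637 to 41934637 lay 113884 bp from the PKDCC start. It gave 0.726 and 0.91 CPM in untreated WT, 2.19 and 2.68 in IFN treated WT, 0.963 and 0.677 in untreated USP18-/-, and 19.2 and 20.1 in IFN treated USP18-/- cells. The rise was 1.55 (SE 0.39, edgeR adjusted p = 0.029) in WT cells and 4.55 (SE 0.26, edgeR adjusted p = 5e-26) in USP18-/- cells. Its call in WT cells was lost under DESeq2 and without any 1 of the 4 WT libraries, where the value ranged from 1.40 to 1.73. No other tested window within 50000 bp was called for IFN. RNF4BP is a pseudogene whose window on chromosome 15 from 44728373 to 44729373 lay 115 bp from the start of TRIM69, an IFN-induced ubiquitin ligase. It gave 8.295 and 8.83 CPM in untreated WT, 21.7 and 17.6 in IFN treated WT, 11.03 and 11.6 in untreated USP18-/-, and 51.4 and 50.3 in IFN treated USP18-/- cells. The effects were 1.195 (SE 0.15, edgeR adjusted p = 2.2e-08) and 2.17 (SE 0.13, edgeR adjusted p = 5e-25). PHF11 encodes a PHD finger protein, and its window on chromosome 13 from 49495473 to 49496473 gave 9.33 and 7.83 CPM in untreated WT, 17.9 and 17.4 in IFN treated WT, 5.78 and 6.96 in untreated USP18-/-, and 31.5 and 32.1 in IFN treated USP18-/- cells. The effects were 1.04 (SE 0.16, edgeR adjusted p = 4.6e-06) in WT cells, lost without the second untreated WT library (0.92), and 2.32 (SE 0.16, edgeR adjusted p = 1.7e-22) in USP18-/- cells. All 7 windows rose in both genotypes.

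**Figure D1:**
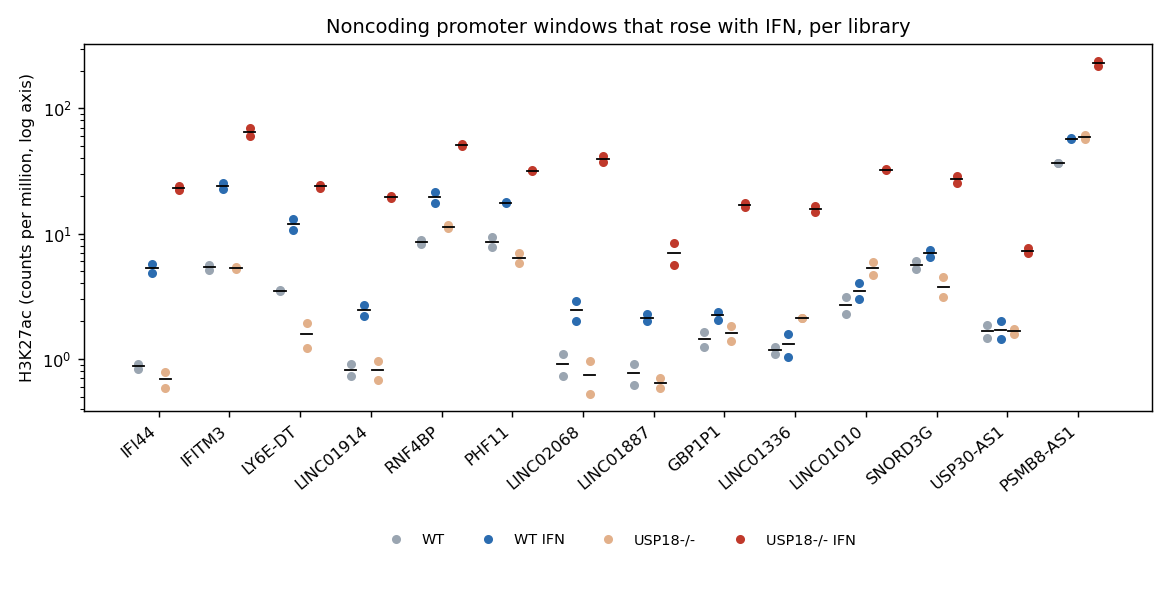
H3K27ac in CPM on a log axis at 14 noncoding promoter windows, with 1 point per library, coloured by group, and a bar at the mean of 2 libraries. The IFN treated USP18-/- libraries lie above the other 3 groups at each of the 14 windows, and at the first 6 the IFN treated WT libraries also lie above the untreated ones.

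In USP18-/- cells, IFN raised 113 noncoding windows (3.92%) of 97 genes and lowered 45 (1.56%) of 42 genes, against 7.12% and 4.41% of all tested windows. The share of higher calls was below that of all windows and near that of coding promoters, of which 3.63% were higher and 1.56% lower. The median log2 fold change was 0.03 over the noncoding windows and -0.01 over all windows. Scaled by the sum of counts, 88 were higher and 77 lower, so the excess of rises depends on the scaling. LINC windows held the most calls for their number, with 22 of 350 higher and 11 lower. Of antisense or divergent windows 22 of 722 were higher, of noncoding transcripts of coding genes 27 of 748, of pseudogenes 13 of 281, of microRNAs or hosts 13 of 264, of snoRNAs or hosts 3 of 74 and of other genes 13 of 446. In 7 of 7 classes higher calls outnumbered lower ones. Rises were called at 60 of 1734 windows near a coding start and at 53 of the 1151 that stood apart.

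LINC02068 showed the largest rise among windows that passed the naming rule. Its window on chromosome 3 from 172595801 to 172596801 lies 72826 bp from the start of TNFSF10, the gene of the death ligand TRAIL, and holds the 4 ISRE matches printed above. It gave 0.726 and 1.09 CPM in untreated WT, 1.99 and 2.88 in IFN treated WT, 0.525 and 0.967 in untreated USP18-/-, and 41.3 and 37.2 in IFN treated USP18-/- cells. The IFN treated USP18-/- libraries stood far above the other 6, which lay between 0.525 and 2.88 CPM. The IFN effect was 5.72 (SE 0.24, edgeR adjusted p = 1.1e-34) in USP18-/- cells and 1.39 (SE 0.38, edgeR adjusted p = 0.061) in WT cells. Of 18 other tested windows within 50000 bp, 14 also rose with IFN in USP18-/- cells and 2 in WT cells. LINC01887, on chromosome 18 from 10626189 to 10627189 and 46058 bp from the PIEZO2 start, gave 0.622 and 0.91 CPM in untreated WT, 1.99 and 2.26 in IFN treated WT, 0.7 and 0.5803 in untreated USP18-/-, and 8.45 and 5.63 in IFN treated USP18-/- cells. It rose by 3.43 (SE 0.35, edgeR adjusted p = 1.2e-13) in USP18-/- cells and did not pass in WT cells at 1.44 (SE 0.43, edgeR adjusted p = 0.1). None of its 5 neighbours was called for IFN.

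LINC01336, 769 bp from the start of the glycosyltransferase gene GCNT4, gave 1.24 and 1.09 CPM in untreated WT, 1.59 and 1.03 in IFN treated WT, 2.1 and 2.13 in untreated USP18-/-, and 14.9 and 16.7 in IFN treated USP18-/- cells. The rise was 2.897 (SE 0.23, edgeR adjusted p = 1.3e-18). LINC01010, 119137 bp from the start of the kinase gene SGK1, gave 2.28 and 3.09 CPM in untreated WT, 2.98 and 4.01 in IFN treated WT, 4.64 and 5.9 in untreated USP18-/-, and 32.7 and 31.9 in IFN treated USP18-/- cells, a rise of 2.62 (SE 0.17, edgeR adjusted p = 3.1e-23). In LINC00562 the untreated USP18-/- libraries were the lowest and the IFN treated ones the highest, at 4.15 and 2.37 CPM in untreated WT, 2.88 and 3.29 in IFN treated WT, 2.01 and 0.967 in untreated USP18-/-, and 9.52 and 8.64 in IFN treated USP18-/- cells. It rose by 2.58 (SE 0.28, edgeR adjusted p = 1.4e-12). SNORD3G, a copy of the U3 snoRNA family, gave 6.01 and 5.19 CPM in untreated WT, 6.56 and 7.41 in IFN treated WT, 4.46 and 3.09 in untreated USP18-/-, and 28.9 and 25.2 in IFN treated USP18-/- cells, and its rise was 2.83 (SE 0.18, edgeR adjusted p = 3.3e-23). The U3 family has near-identical copies, so tags at SNORD3G can stem from another copy. LOC401312 gave 3.53 and 2.18 CPM in untreated WT, 2.78 and 2.99 in IFN treated WT, 8.23 and 7.93 in untreated USP18-/-, and 26.9 and 27.99 in IFN treated USP18-/- cells, with higher values in USP18-/- cells already before IFN, and rose by 1.76 (SE 0.16, edgeR adjusted p = 1.2e-15) together with all 8 other tested windows within 50000 bp.

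Falls were smaller. MLXIPL, whose protein is a glucose-responsive transcription factor, gave 2.19 and 3.09 CPM in untreated USP18-/- and 0.534 and 0.939 in IFN treated USP18-/- cells, and fell by 1.83 on the log2 scale (SE 0.43, edgeR adjusted p = 0.00042). EPN2-AS1 gave 2.98 and 1.74 CPM in untreated USP18-/- and 0.534 and 0.939 in IFN treated USP18-/- cells, and fell by 1.68 on the log2 scale (SE 0.44, edgeR adjusted p = 0.002) that was lost under DESeq2 and without the first library of either USP18-/- group (-1.26 and -1.36). LINC00254 gave 14.3 and 16.02 CPM in untreated WT, 10.9 and 13.8 in IFN treated WT, 9.8 and 7.25 in untreated USP18-/-, and 2.85 and 2.54 in IFN treated USP18-/- cells, so it lay lower in USP18-/- than in WT cells in both conditions, and fell by 1.66 on the log2 scale (SE 0.23, edgeR adjusted p = 8.7e-09). AOX3P-AOX2P, a pair of aldehyde oxidase pseudogenes, gave 12.9 and 14.4 CPM in untreated WT, 8.15 and 10.6 in IFN treated WT, 12.9 and 15.9 in untreated USP18-/-, and 4.63 and 4.696 in IFN treated USP18-/- cells and fell by 1.62 on the log2 scale (SE 0.19, edgeR adjusted p = 4.2e-11).

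**Figure D2:**
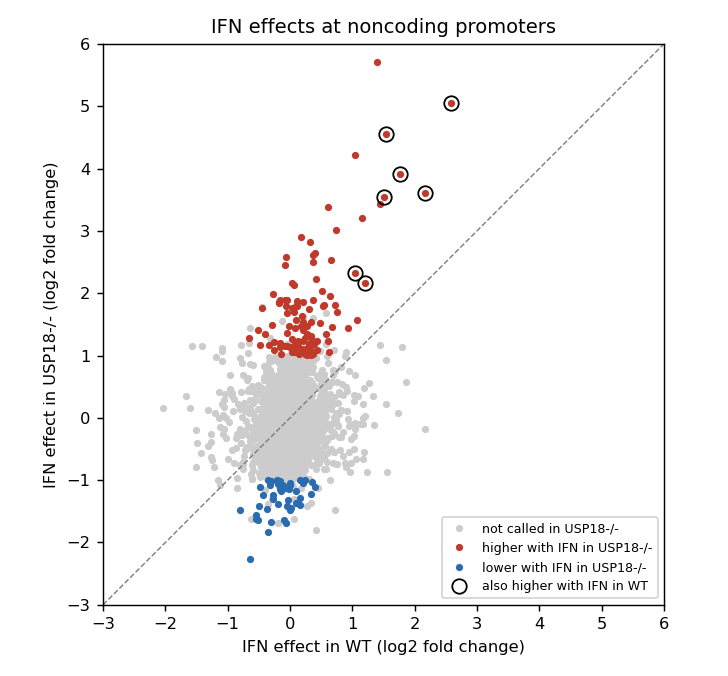
IFN effect on H3K27ac in WT cells (x axis) against that in USP18-/- cells (y axis), both as log2 fold change, with 1 point per noncoding promoter window and the line of equal effects dashed. Of the 2885 tested windows 2877 are drawn, without 8 on chromosome Y or at 1 gene of chromosome X. The 7 circled windows, called in WT cells, lie above the dashed line.

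The difference of the IFN effects, that in USP18-/- minus that in WT cells, was called higher at 78 windows (2.70%) and lower at 34 (1.18%), against 4.61% and 2.55% of all windows. The median was 0.04 over the noncoding windows and 0.01 over all windows. Scaled by the sum of counts, 55 were higher and 52 lower. Of the 113 windows that rose in USP18-/- cells, 71 (62.8%) had a called larger effect there, and the contrasts share the USP18-/- libraries. These 113 windows had a median IFN effect of 1.47 in USP18-/- and 0.21 in WT cells, and 86 had a value above 0 in WT cells. They were chosen by their rise in USP18-/- cells, so a median above 1 there follows from the choice. The matching shares among all raised windows are not given here, so these counts cannot be read as a trait of noncoding promoters. For the lowered windows, chosen in the same way by their fall in USP18-/- cells, the medians were -1.22 and -0.15.

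The differences were 4.33 (SE 0.58, edgeR adjusted p = 1.4e-08) at LINC02068, 3.01 (SE 0.58, edgeR adjusted p = 4.9e-05) at LINC01914, 2.77 (SE 0.46, edgeR adjusted p = 3.2e-06) at GBP1P1, 2.72 (SE 0.51, edgeR adjusted p = 2.6e-05) at LINC01336, 2.64 (SE 0.42, edgeR adjusted p = 9.9e-07) at LINC00562 and 2.504 (SE 0.29, edgeR adjusted p = 1.1e-10) at SNORD3G. Except at LINC01914, none of these passed in WT cells alone. Lower differences were weaker, and several were lost under alternatives. At MIR4496, LINC00254 and PRKAG2-AS1 the called difference held without any 1 library. The values then were -1.68 to -1.42, -1.56 to -1.16 and -1.74 to -1.16. PDXDC2P-NPIPB14P gave 1.66 and 1.27 CPM in untreated WT, 2.58 and 2.78 in IFN treated WT, 3.15 and 3.97 in untreated USP18-/-, and 2.403 and 1.88 in IFN treated USP18-/- cells, a difference of -1.596 (SE 0.47, edgeR adjusted p = 0.012), with neither IFN effect called. LOC101929622 had -1.56, SLC25A1, the mitochondrial citrate carrier, -1.51, CASC11 -1.47 and PRKAG2-AS1 -1.45. Each of these fell with IFN in USP18-/- cells. Under DESeq2 the difference was not called at PDXDC2P-NPIPB14P, LOC101929622, SLC25A1 and CASC11, and it was lost at PDXDC2P-NPIPB14P without the second library of the untreated WT, IFN treated WT or untreated USP18-/- group (-1.41 to -1.54) and at CASC11 without the first untreated WT library (-1.12). The fall with IFN was lost at SLC25A1 without the second untreated (-0.80) or first IFN treated USP18-/- library (-0.89), at LOC101929622 without the latter (-0.91), and at PRKAG2-AS1 without the second untreated USP18-/- library (-0.995).

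ISRE letters lay in 46 of the 113 windows raised by IFN in USP18-/- cells, 40.7% (exact 95% interval 31.6% to 50.4%), and in 2 of the 45 lowered windows (4.44%, 0.543% to 15.1%). The share was 11.9% of all 2885 noncoding windows tested, 10.3% of coding promoters and 17.1% of all windows tested. Coding promoters raised by the same contrast held them in 42.8% of 507 and all raised windows in 46.9% of 8781. Among the 7 windows raised in WT cells 4 held a match. In the central 200 bp the shares were 23.9% of the raised and 2.98% of all noncoding windows. The STAT letters TTCCNGGAA were in 7.08% of the raised and 3.29% of all noncoding windows, and the NF-κB letters GGGNNTTTCC in 6.19% and 6.55%. All motifs were searched on both strands. LINC01914, LINC00562, SNORD3G, USP30-AS1 and both LY6E-DT windows held no exact ISRE match, and no match says only that these letters are not in the 1000 bp. Overlapping windows can share a match, and matches are a description of the sequence. Raised windows had a median of 37 CpG and 52.5% GC, against 64 CpG and 60.0% GC over all noncoding windows.

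Without IFN, USP18-/- cells had more H3K27ac than WT cells at 212 noncoding windows (7.35%) of 176 genes and less at 132 (4.58%) of 111 genes. Over all tested windows the shares were 5.69% higher and 10.8% lower. The median log2 fold change was 0.30 over the noncoding windows, 0.36 over coding promoters and -0.02 over all windows. This excess of higher windows rests on the scaling. With TMM factors from promoter windows alone, 86 were higher and 262 lower, with the median of all windows moved to -0.36. With the sum of counts 143 were higher and 188 lower, and the median of all windows was -0.16. With header tag totals 175 were higher and 151 lower. Near coding starts 126 windows were higher and 49 lower, and apart from them 86 and 83.

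TPTEP1, a pseudogene related to the phosphatase gene TPTE, gave 2.28 and 1.27 CPM in untreated WT, 2.48 and 2.88 in IFN treated WT, 22.4 and 20.3 in untreated USP18-/-, and 24.9 and 24.3 in IFN treated USP18-/- cells. Its window on chromosome 22 from 16601243 to 16602243 differed by 3.604 (SE 0.22, edgeR adjusted p = 1.6e-24) without IFN. NUDT16L2P, a pseudogene of the NUDT16 decapping enzyme, gave 0.933 and 1.09 CPM in untreated WT, 0.894 and 1.44 in IFN treated WT, 9.63 and 6.77 in untreated USP18-/-, and 8.098 and 7.89 in IFN treated USP18-/- cells and differed by 3.003 (SE 0.30, edgeR adjusted p = 1e-13). ERVE-5, a transcript of an endogenous retrovirus, gave 9.12 and 8.37 CPM in untreated WT, 7.35 and 8.96 in IFN treated WT, 63.4 and 63.3 in untreated USP18-/-, and 88.2 and 88.5 in IFN treated USP18-/- cells. It lies 606538 bp from any coding start and differed by 2.86 (SE 0.13, edgeR adjusted p = 1e-32). Pseudogenes and retroviral copies share sequence with relatives, so the source of their tags is uncertain. LINC00899 gave 14.7 and 15.1 CPM in untreated WT, 11.7 and 12.4 in IFN treated WT, 93.1 and 105 in untreated USP18-/-, and 98.9 and 106 in IFN treated USP18-/- cells and differed by 2.73 (SE 0.11, edgeR adjusted p = 4.2e-35), and 12 of 24 other tested windows within 50000 bp were also higher. LINC02139 had 2.796 and LINC02447 2.68, with 0 of their 10 and 13 neighbours called higher.

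LINC02036 had the largest loss. Its window on chromosome 3 from 194250358 to 194251358 gave 14.8 and 15.1 CPM in untreated WT, 18.9 and 18.1 in IFN treated WT, 0.263 and 0.387 in untreated USP18-/-, and 0.356 and 0.282 in IFN treated USP18-/- cells. All 4 WT libraries held 14.8 to 18.9 CPM and all 4 USP18-/- libraries 0.263 to 0.387. The difference was -5.49 (SE 0.32, edgeR adjusted p = 2.5e-25), and 4 of the 7 other tested windows within 50000 bp were lower as well. An unnamed noncoding start on chromosome 10 from 282141 to 283141, 46885 bp from the DIP2C start, fell from 18.9 and 20.2 CPM in untreated WT to 1.49 and 1.55 in untreated USP18-/- cells. The difference there was -3.68 (SE 0.23, edgeR adjusted p = 6e-24), and 4 of 5 neighbours were lower. ZEB1-AS1 is divergent to ZEB1, a repressor of epithelial genes, with 293 bp between centre and coding start. It gave 65.9 and 58.4 CPM in untreated WT, 67.4 and 55.2 in IFN treated WT, 11.9 and 11.99 in untreated USP18-/-, and 10.3 and 10.4 in IFN treated USP18-/- cells, a difference of -2.38 (SE 0.12, edgeR adjusted p = 2.9e-28). MIR550A3HG had -2.59, LINC02611 -2.39 with 5 of 11 neighbours lower, and LOC100130298 -2.46 at values under 3 CPM. The genotypes are different lines, and input DNA is not analysed here, so the part of copy number in these differences was not tested. Offsets that take out the median deviation of each 10 Mb stretch in each library left 182 windows higher and 120 lower.

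**Figure D3:**
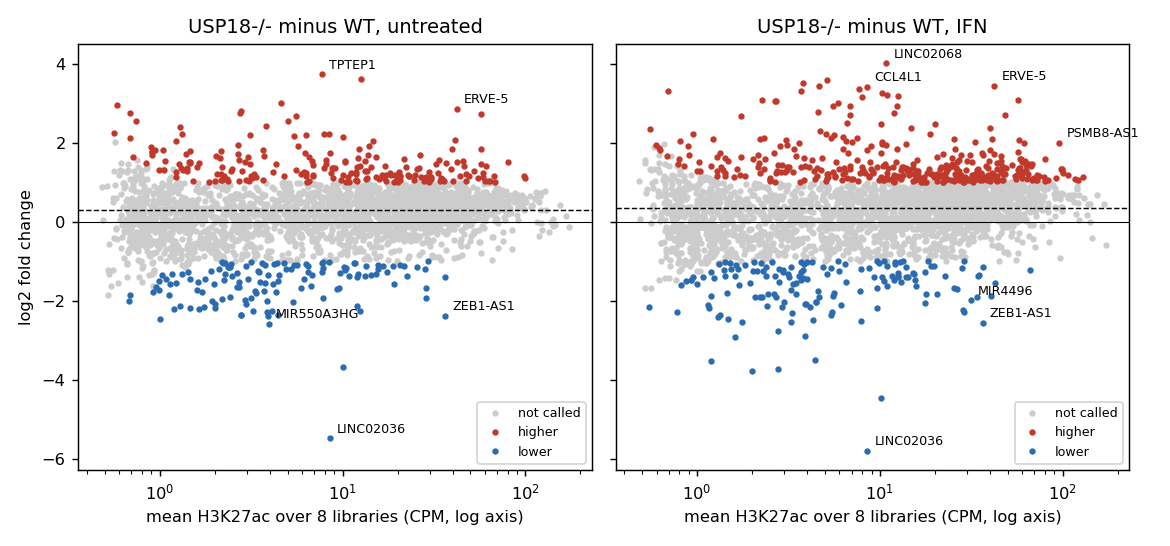
Genotype difference (USP18-/- minus WT, log2 fold change) at noncoding promoter windows against their mean H3K27ac in CPM on a log axis, without IFN (left) and with IFN (right). The same 2877 windows are drawn (8 are left out), called windows are coloured, and the dashed line is the median of the drawn windows. LINC02036 lies lowest in both panels.

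With IFN, 371 noncoding windows (12.9%) of 314 genes were higher and 154 (5.34%) of 122 genes lower in USP18-/- than in WT cells, against 11.3% and 13.5% of all windows. The median was 0.34 over the noncoding windows and 0.00 over all windows. With TMM on promoter windows 128 were higher and 351 lower (median of all windows -0.40), with the sum of counts 187 and 270 (-0.27), and with header totals 283 and 189 (-0.11). LINC02068 gave 4.01 (SE 0.20, edgeR adjusted p = 2.6e-30), LINC01336 3.58 (SE 0.26, edgeR adjusted p = 5.6e-21), ERVE-5 3.44 (SE 0.13, edgeR adjusted p = 3.5e-38), LOC401312 3.24 (SE 0.20, edgeR adjusted p = 5.2e-25) and LINC01010 3.21 (SE 0.19, edgeR adjusted p = 4.9e-26). CCL4L1, a noncoding transcript at the chemokine gene CCL4L2, gave 2.07 and 1.91 CPM in untreated WT, 2.19 and 1.65 in IFN treated WT, 9.63 and 8.898 in untreated USP18-/-, and 22.2 and 18.97 in IFN treated USP18-/- cells. It was higher without IFN by 2.22 (SE 0.25, edgeR adjusted p = 3.8e-12) and with IFN by 3.42 (SE 0.22, edgeR adjusted p = 2.3e-23). The CCL4 genes are near-identical copies, and the split of tags between them is uncertain.

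On the lower side LINC02036 gave -5.802 (SE 0.31, edgeR adjusted p = 3.2e-28), and the unnamed start on chromosome 10 gave 16.7 and 20.2 CPM in WT and 0.890 and 0.751 CPM in USP18-/- cells with IFN, a difference of -4.47 (SE 0.26, edgeR adjusted p = 3.8e-26). LOC101928030 and LINC02367 are neighbours on chromosome 12. LINC02367 gave 9.44 and 8.74 CPM in untreated WT, 6.56 and 6.18 in IFN treated WT, 2.45 and 0.967 in untreated USP18-/-, and 0.534 and 0.563 in IFN treated USP18-/- cells, a difference of -3.51 (SE 0.36, edgeR adjusted p = 1.1e-13), and LOC101928030 2.38 and 2.99 CPM in IFN treated WT and 0.267 and 0.0939 in IFN treated USP18-/- cells, a difference of -3.79 (SE 0.54, edgeR adjusted p = 8.1e-09). POPDC3, a muscle membrane protein gene, gave 5.18 and 4.46 CPM in untreated WT, 4.97 and 5.04 in IFN treated WT, 1.14 and 0.677 in untreated USP18-/-, and 0.356 and 0.376 in IFN treated USP18-/- cells and differed by -3.73 (SE 0.41, edgeR adjusted p = 1.2e-12). These folds rest on few tags in IFN treated USP18-/- cells, from 3 to 4.5 counts per library at LINC02036, 1 to 3 at LOC101928030 and 3.5 to 4.5 at POPDC3.

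**Figure D4:**
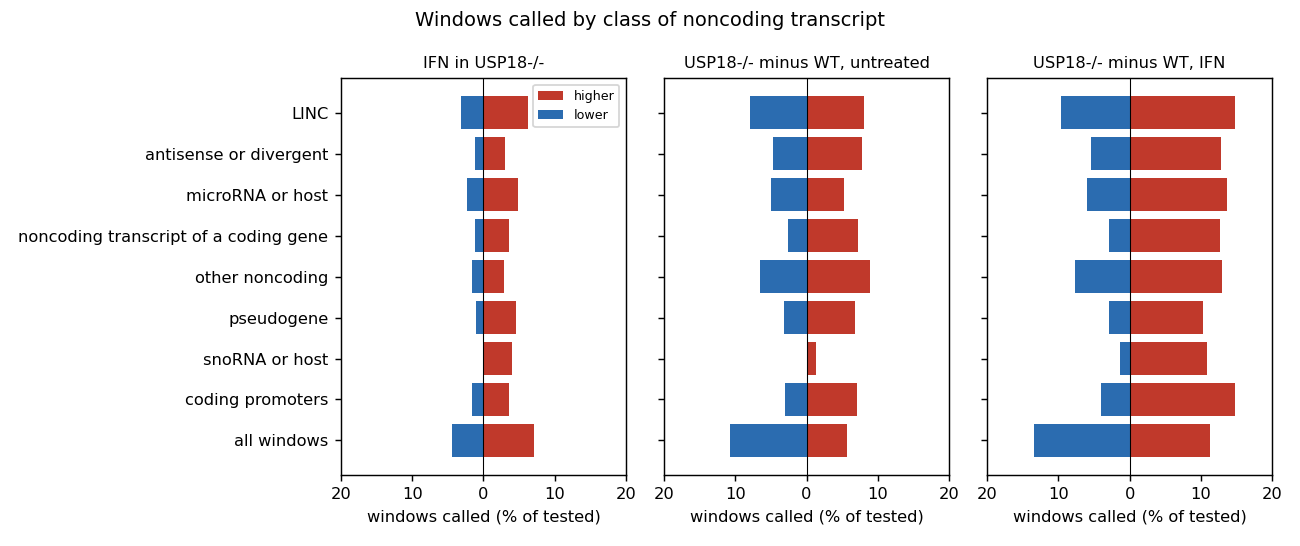
Share of tested windows called higher (red, to the right) and lower (blue, to the left) in percent, by class of noncoding transcript, with coding promoters and all windows below, for IFN in USP18-/- cells and for the genotype differences without and with IFN. LINC windows show 6.29% higher with IFN in USP18-/- cells, snoRNA windows 0 lower in the left and middle panels, and all windows a larger lower share than noncoding promoters.

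MicroRNAs and their hosts accounted for 264 tested windows of 216 genes, with means from 0.554 to 142 CPM. A window at a microRNA is a start site of the annotation at or near the hairpin, and 109 of the 264 (41.3%) had a coding start within 2000 bp. In all, 66 windows of 54 genes were called in any comparison, 30 of them near a coding start. No matching share over all windows is given here for this total, so it cannot be read as a trait of the class. IFN changed 0 of the 264 windows in WT cells, where 0.243% of all noncoding windows were higher. In USP18-/- cells it raised 13 (4.92%) and lowered 6 (2.27%), against 7.12% and 4.41% of all tested windows. Without IFN 14 (5.30%) were higher and 13 (4.92%) lower in USP18-/- cells, against 5.69% and 10.8%, and with IFN 36 (13.6%) and 16 (6.06%), against 11.3% and 13.5%.

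MIR4258 lies within CKS1B, a cell cycle gene, and 1 of its windows is centred 1068 bp from the CKS1B start. It gave 35.3 and 36.6 CPM in untreated WT, 48.4 and 47.6 in IFN treated WT, 25.03 and 25.3 in untreated USP18-/-, and 124 and 112 in IFN treated USP18-/- cells. The IFN effect was 2.23 (SE 0.10, edgeR adjusted p = 9e-33) in USP18-/- and 0.42 (SE 0.10, edgeR adjusted p = 0.019) in WT cells, and the difference between them was 1.81 (SE 0.14, edgeR adjusted p = 3e-17). MIR4734, 2843 bp from the MLLT6 start, gave 16.3 and 14.1 CPM in untreated WT, 19.5 and 19.9 in IFN treated WT, 28.7 and 25.6 in untreated USP18-/-, and 63.4 and 62.7 in IFN treated USP18-/- cells and rose by 1.21 (SE 0.11, edgeR adjusted p = 6.7e-16). The MIR3945HG host gave 4.67 and 4.37 CPM in untreated WT, 5.96 and 4.94 in IFN treated WT, 8.23 and 9.28 in untreated USP18-/-, and 22.2 and 22.4 in IFN treated USP18-/- cells and rose by 1.35 (SE 0.16, edgeR adjusted p = 4.8e-11). MIR1914 lies in UCKL1, and its window 258 bp from the UCKL1 start was not called for IFN (0.69), whereas the overlapping window at 772 bp gave 1.14 and 1.64 CPM in untreated WT, 2.58 and 2.16 in IFN treated WT, 5.6 and 7.64 in untreated USP18-/-, and 19.6 and 23.3 in IFN treated USP18-/- cells and rose by 1.699 (SE 0.18, edgeR adjusted p = 3.2e-13). MIR548H2 was lower in USP18-/- than in WT cells without IFN and rose with it, at 22.2 and 26.03 CPM in untreated WT, 21.8 and 24.9 in IFN treated WT, 6.65 and 9.48 in untreated USP18-/-, and 21.4 and 19.5 in IFN treated USP18-/- cells. The rise was 1.35 (SE 0.16, edgeR adjusted p = 2.8e-11). Its genotype difference was -1.59 (SE 0.16, edgeR adjusted p = 4.1e-14) without and -0.19 (SE 0.14, edgeR adjusted p = 0.31) with IFN.

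Falls with IFN in USP18-/- cells were called at MIR4496, MIR3621, MIR181A2HG, MIR5093, MIR1284 and MIR6084. MIR4496, 1920 bp from the start of SELPLG, the gene of the P-selectin ligand, gave 44.4 and 42.2 CPM in untreated WT, 41.4 and 39.1 in IFN treated WT, 29.2 and 34.04 in untreated USP18-/-, and 10.3 and 9.96 in IFN treated USP18-/- cells. It fell by 1.64 on the log2 scale (SE 0.13, edgeR adjusted p = 4.1e-18), with a difference from WT cells of -1.53 (SE 0.17, edgeR adjusted p = 5.3e-11). MIR1284 lies within FOXP1 and gave 44.6 and 44.8 CPM in untreated WT, 44.5 and 44.9 in IFN treated WT, 59.3 and 59.2 in untreated USP18-/-, and 27.5 and 30.1 in IFN treated USP18-/- cells, and fell by 1.04 on the log2 scale (SE 0.10, edgeR adjusted p = 5e-14), a call lost with 10 Mb offsets (-0.93). MIR181A2HG, the host of miR-181a and miR-181b, gave 13.9 and 13.7 CPM in untreated WT, 10.1 and 12.7 in IFN treated WT, 13.8 and 12.2 in untreated USP18-/-, and 4.72 and 5.82 in IFN treated USP18-/- cells. It fell by 1.31 on the log2 scale (SE 0.19, edgeR adjusted p = 2.1e-08), and the difference from WT cells was -1.03 (SE 0.26, edgeR adjusted p = 0.0021), a call lost without the second IFN treated WT library (-0.87) or the first untreated (-0.97) or first IFN treated (-0.93) USP18-/- library, and with 10 Mb offsets (-0.99). MIR3621 gave 5.25 and 5.996 CPM in untreated USP18-/- and 1.78 and 2.25 in IFN treated USP18-/- cells, and fell by 1.47 on the log2 scale (SE 0.29, edgeR adjusted p = 3.1e-05). MIR5093 and MIR6084 had log2 fold changes of -1.08 and -1.0001, and lost the call without 1 library, MIR5093 without the first untreated (-0.74) or second IFN treated (-0.97) USP18-/- library, and MIR6084 without the second untreated (-0.91) or first IFN treated (-0.77) USP18-/- library, or without the second untreated WT library, where it lay just inside the fold threshold. With 10 Mb offsets neither was called (-0.96 and -0.92), and MIR6084 was also lost with the filter of 30 counts, unrounded tags and a fit of the USP18-/- groups alone.

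Genotype differences in this class reached several-fold. MIR3189 lies in GDF15, a stress-induced cytokine gene, with its window 84 bp from the GDF15 start. It gave 0.933 and 2.18 CPM in untreated WT, 1.79 and 1.44 in IFN treated WT, 9.63 and 9.28 in untreated USP18-/-, and 7.12 and 8.08 in IFN treated USP18-/- cells, a difference of 2.56 (SE 0.27, edgeR adjusted p = 6.3e-13) without IFN. MIR9-3HG, a host of miR-9, gave 1.24 and 1.09 CPM in untreated WT, 1.59 and 2.26 in IFN treated WT, 5.95 and 6.58 in untreated USP18-/-, and 6.23 and 5.63 in IFN treated USP18-/- cells, a difference of 2.41 (SE 0.31, edgeR adjusted p = 4.4e-10). MIR505 differed by 2.397 at values of at most 2.58 CPM. Lower in USP18-/- cells were MIR550A3HG at 6.84 and 6.55 CPM in untreated WT, 8.35 and 4.53 in IFN treated WT, 0.875 and 1.35 in untreated USP18-/-, and 1.87 and 1.13 in IFN treated USP18-/- cells, with -2.59 (SE 0.32, edgeR adjusted p = 2e-10), and MIR4500HG, 40 bp from the SLITRK5 start, at 8.71 and 6.92 CPM in untreated WT, 5.86 and 5.66 in IFN treated WT, 1.49 and 1.74 in untreated USP18-/-, and 1.25 and 1.31 in IFN treated USP18-/- cells, with -2.27 (SE 0.28, edgeR adjusted p = 9.3e-11). MIR7-2 gave 6.84 and 6.19 CPM in untreated WT, 8.15 and 6.897 in IFN treated WT, 1.66 and 2.13 in untreated USP18-/-, and 1.25 and 1.41 in IFN treated USP18-/- cells, with -1.78 (SE 0.27, edgeR adjusted p = 9.2e-08) without and -2.495 (SE 0.29, edgeR adjusted p = 5.7e-12) with IFN. At each of these 6 windows the genotypes did not overlap in either condition, with 2 libraries per group. The share of all windows without overlap is not given here, so this cannot be read as a trait of microRNA windows.

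**Figure D5:**
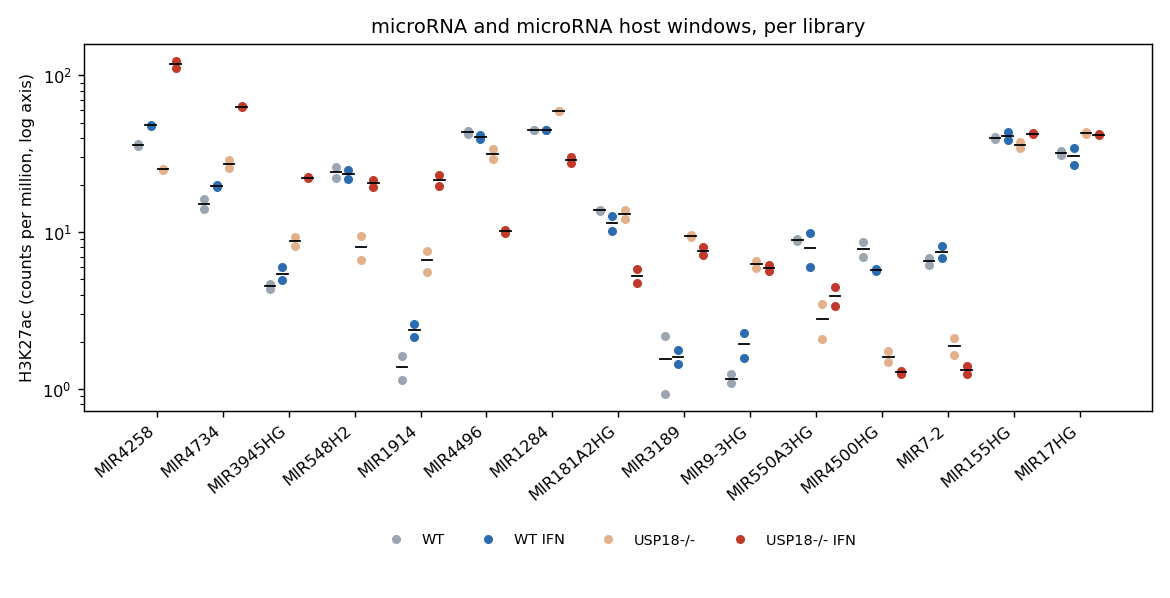
H3K27ac in CPM on a log axis at 15 windows of microRNAs or microRNA hosts, with 1 point per library coloured by group and a bar at the mean. The IFN treated USP18-/- libraries lie above all others at MIR4258 and below all others at MIR4496, and MIR155HG stays between 34.5 and 43.5 CPM in all 8 libraries.

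A list of 46 noncoding RNAs linked to interferon or inflammation had 20 genes with a tested window, read at the window with the highest mean. In WT cells 0 passed both thresholds, where 0.343% of all tested windows were higher and 0.0389% lower. In USP18-/- cells IFN raised 4, among them PSMB8-AS1, GBP1P1 and USP30-AS1, and lowered 1, PTPRN2-AS1, where 7.12% and 4.41% of all tested windows were called. The median effect was -0.05 in WT and 0.24 in USP18-/- cells. PSMB8-AS1 shares its start with PSMB8, a subunit of the immunoproteasome, and gave 36.6 and 36.7 CPM in untreated WT, 57.4 and 57.1 in IFN treated WT, 60.99 and 56.9 in untreated USP18-/-, and 240.2 and 218 in IFN treated USP18-/- cells. It rose by 0.64 (SE 0.09, edgeR adjusted p = 1.1e-06) in WT, short of the fold threshold, and by 1.96 (SE 0.09, edgeR adjusted p = 1.6e-33) in USP18-/- cells, with a difference of 1.31 (SE 0.13, edgeR adjusted p = 1.5e-13). GBP1P1, a pseudogene of the guanylate-binding protein family and 43512 bp from a coding start, gave 1.24 and 1.64 CPM in untreated WT, 2.38 and 2.06 in IFN treated WT, 1.4 and 1.84 in untreated USP18-/-, and 17.6 and 16.2 in IFN treated USP18-/- cells and rose by 3.38 (SE 0.24, edgeR adjusted p = 2.9e-21). USP30-AS1 gave 1.87 and 1.46 CPM in untreated WT, 1.99 and 1.44 in IFN treated WT, 1.58 and 1.74 in untreated USP18-/-, and 6.94 and 7.61 in IFN treated USP18-/- cells and rose by 2.13 (SE 0.28, edgeR adjusted p = 1.4e-09). PTPRN2-AS1 gave 14.5 and 14.01 CPM in untreated WT, 11.7 and 15.2 in IFN treated WT, 18.2 and 16.1 in untreated USP18-/-, and 8.36 and 7.33 in IFN treated USP18-/- cells and fell by 1.13 on the log2 scale (SE 0.17, edgeR adjusted p = 4.1e-08).

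Between IFN treated genotypes, 8 of the 20 genes were higher and 4 lower, and without IFN 1 was higher and 2 lower. The shares of all tested windows were 11.3% and 13.5% with IFN and 5.69% and 10.8% without. HEIH was higher without IFN at 1.13 (SE 0.10, edgeR adjusted p = 3.1e-16), a call lost under 2 other scalings and with 10 Mb offsets, and with IFN at 1.58 (SE 0.10, edgeR adjusted p = 5.1e-24). NEAT1, the scaffold of nuclear paraspeckles, gave 66.6 and 63.3 CPM in untreated WT, 69.7 and 60.8 in IFN treated WT, 96.95 and 99.7 in untreated USP18-/-, and 141 and 141 in IFN treated USP18-/- cells, a difference with IFN of 1.11 (SE 0.09, edgeR adjusted p = 2.3e-19) that was not called under 3 other scalings or with 10 Mb offsets (0.96). ZFAS1 lies head to head with ZNFX1, an RNA helicase gene of antiviral defence, and gave 31.1 and 28.5 CPM in untreated WT, 43.1 and 31.5 in IFN treated WT, 54.8 and 60.3 in untreated USP18-/-, and 111 and 112 in IFN treated USP18-/- cells. It differed with IFN by 1.58 (SE 0.10, edgeR adjusted p = 1.6e-23). CARD8-AS1, beside an inflammasome gene, reached 1.03, lost under 3 other scalings, with the filter of 30 counts, with 10 Mb offsets (0.67) and without the first untreated (0.995) or first IFN treated (0.96) USP18-/- library, and NKILA, an NF-κB linked RNA, 1.49. EGOT was lower in USP18-/- cells without IFN at -1.09 (SE 0.14, edgeR adjusted p = 2.5e-10) and with IFN at -1.84 (SE 0.15, edgeR adjusted p = 5.7e-18), with values of 33.2 and 30.2 CPM in untreated WT, 25.1 and 30.6 in IFN treated WT, 14.4 and 15.5 in untreated USP18-/-, and 8.72 and 6.76 in IFN treated USP18-/- cells. PCED1B-AS1 (-1.004), MIR3142HG (-1.37) and PURPL (-1.88) were lower with IFN. These calls were lost without 1 library, at PCED1B-AS1 without the second IFN treated WT (-0.89) or first IFN treated USP18-/- library (-0.98), and at MIR3142HG (-1.16) and PURPL (-1.41) without the first IFN treated WT library. With 10 Mb offsets PCED1B-AS1 gave -0.29 (edgeR adjusted p = 0.13) and MIR3142HG -0.93, neither called. The former was also lost with 1 window per chain of overlapping windows (-0.97), and the latter under DESeq2 (adjusted p = 0.053). HCG27, HCG11, DANCR, LUCAT1 and LINC01215 passed both thresholds in no comparison, and LUCAT1 gave an IFN effect of 0.68 (SE 0.26, edgeR adjusted p = 0.33) in WT and 0.77 (SE 0.22, edgeR adjusted p = 0.0048) in USP18-/- cells.

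Hosts of microRNA clusters of blood cells were tested at 14 of 31 listed genes. MIR181A2HG and MIR3142HG were called, and the other 12 were called in no comparison. Of all tested windows IFN raised 7.12% and lowered 4.41% in USP18-/- cells. Between genotypes 5.69% were higher and 10.8% lower without IFN, and 11.3% and 13.5% with IFN. MIR155HG, the host of miR-155, gave 39.4 and 40.6 CPM in untreated WT, 43.5 and 38.8 in IFN treated WT, 34.5 and 37.7 in untreated USP18-/-, and 42 and 43.01 in IFN treated USP18-/- cells, and its effects were 0.04 (SE 0.11, edgeR adjusted p = 0.96) in WT and 0.24 (SE 0.11, edgeR adjusted p = 0.1) in USP18-/- cells. MIR3142HG, the host of miR-146a, gave 3.32 and 4.004 CPM in untreated WT, 3.48 and 2.68 in IFN treated WT, 2.63 and 0.5803 in untreated USP18-/-, and 0.979 and 1.41 in IFN treated USP18-/- cells and was lower in USP18-/- cells without IFN at -1.16 (SE 0.35, edgeR adjusted p = 0.0059), a call lost under DESeq2 and without the second untreated WT (-1.01) or USP18-/- library (-0.48), and with 10 Mb offsets (-0.73, edgeR adjusted p = 0.1). MIR17HG, the host of the miR-17 to miR-92a cluster, ranged from 26.97 to 43.8 CPM, with effects of -0.06 and -0.04. DLEU2, the host of miR-15a and miR-16, had 0.13 and 0.23.

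For the lists that follow, the shares of all tested windows are given first. IFN raised 0.343% and lowered 0.0389% in WT, and 7.12% and 4.41% in USP18-/- cells. Between genotypes 5.69% were higher and 10.8% lower without IFN, and 11.3% and 13.5% with IFN. With lists this short, 0 calls cannot be read as a lack of response. Of 25 snoRNA hosts 14 were tested. IFN changed 0 of them past both thresholds in either genotype, at medians of 0.05 in WT and -0.12 in USP18-/- cells. With IFN, ZFAS1 was higher and SNHG29 lower in USP18-/- cells (log2 -1.29, SE 0.15, edgeR adjusted p = 4.3e-12), the latter not called with 10 Mb offsets (-0.44). SNHG3, SNHG6 and SNHG7 had IFN effects of -0.67 (SE 0.12, edgeR adjusted p = 4e-06), -0.59 (SE 0.10, edgeR adjusted p = 5.3e-07) and -0.71 (SE 0.13, edgeR adjusted p = 3.7e-06) in USP18-/- cells, within the fold threshold. HOX cluster RNAs had 3 of 18 genes tested, HOTTIP, HOXA11-AS and HOXC-AS1, and 0 were called in any comparison, the log2 values lying between -0.75 and 0.28. Of 24 nuclear and ribonucleoprotein RNAs 19 were tested, and IFN called 0 in either genotype. With IFN, NEAT1 and MALAT1 were higher and OIP5-AS1 lower in USP18-/- cells. MALAT1 gave 49.98 and 58.4 CPM in untreated WT, 48.7 and 51.5 in IFN treated WT, 75.95 and 84.7 in untreated USP18-/-, and 98.4 and 111 in IFN treated USP18-/- cells, a difference of 1.06 (SE 0.09, edgeR adjusted p = 1.3e-16) not called under 3 other scalings, with 10 Mb offsets (0.91) or without the second IFN treated USP18-/- library (0.94). OIP5-AS1 gave 89.6 and 90.3 CPM in untreated WT, 90.6 and 88.9 in IFN treated WT, 46.7 and 44.7 in untreated USP18-/-, and 37.1 and 40.01 in IFN treated USP18-/- cells, a difference of -1.22 (SE 0.09, edgeR adjusted p = 2.1e-19). RN7SL2 held 8.19 and 21.5 CPM in the 2 untreated WT libraries, where the IFN effect was -0.81, not called, and the RN7SL family has near-identical copies.

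Neighbouring windows were counted for the windows named here and for every called microRNA window. Of 32 of them raised by IFN in USP18-/- cells, 21 had another window within 50000 bp, not overlapping, that was raised as well, and 51.6% of all raised windows in the table did. Of 17 lowered ones 9 did, against 51.2% of all lowered windows. Of 26 that were lower in untreated USP18-/- cells 22 had such a neighbour, and of 25 that were higher 16, against 67.6% and 54.4% of all windows called so. These shares were not tested against each other.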

How the data were processed

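H3K27ac ChIP-seq of THP-1 cells was analysed in 8 libraries, whereas libraries of input DNA and of ATAC-seq are not analysed here. Paired-end reads had been placed on hg38 by the authors with Bowtie2, and HOMER gave raw tags in windows of 1000 bp around ATAC-seq peaks merged over libraries. These expected counts were deposited by the authors and are in part fractional (51.7% to 53.4% were whole), and were rounded here. Per the file headers no normalization was applied, and 0 value columns lacked a sample.

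Windows with at least 10 counts in at least 2 libraries (123276) were fitted with edgeR 4.0.16 (R 4.3.3) by quasi-likelihood over the 4 groups, with TMM factors from all windows and Benjamini-Hochberg adjustment over all tested windows. A call needed an absolute log2 fold change above 1 and an adjusted p under 0.05. The pipeline was tested on simulated data. Classes of antisense or divergent and LINC transcripts follow the gene symbol. Those of microRNAs, snoRNAs and their hosts follow the gene symbol or the RefSeq type. The RefSeq type set the classes of coding genes and pseudogenes, and coding starts follow GENCODE 44. Alternatives were DESeq2 1.42.0, other scalings, filters and thresholds, offsets per 10 Mb, 1 window per chain of overlapping windows, a replicate block and leaving out each library.

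Named windows were the genes of 5 lists at their highest window, the 6 largest rises and falls per comparison among called windows whose groups did not overlap and whose higher group had a mean of at least 20 counts, all windows called for IFN in WT cells, and the largest called microRNA windows. The members and lists were chosen with earlier results of these data known. Intervals cover counting error only. Some items that the rules above would name are not reported here.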

Additional observations from a re-analysis of the deposited data

Results flagged for a closer look

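At the following windows the IFN effect in USP18-/- cells differed from that in WT cells by the interaction term of the edgeR fit, and each value is the effect in USP18-/- minus that in WT cells on the log2 scale. No explanation was tested.

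Among windows without a coding start within 2000 bp the difference was 4.33 at LINC02068, 3.01 at LINC01914, 2.77 at GBP1P1, 2.64 at LINC00562, 2.504 at SNORD3G, 2.26 at LINC01010, 1.99 at LINC01887 and 1.73 at LOC401312. The call at LINC01887 was lost under DESeq2 and without any of 4 libraries, with values from 1.62 to 1.90. Near coding starts it was 2.72 at LINC01336, 2.46 at IFI44, 2.15 and 2.04 at the LY6E-DT windows, 2.07 at USP30-AS1, 1.44 at IFITM3, 1.31 at PSMB8-AS1, 1.28 at PHF11 and 1.20 at CCL4L1. The call at CCL4L1 was lost under DESeq2 and without any of 4 libraries (1.02 to 1.26).

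Negative differences were -1.60 at PDXDC2P-NPIPB14P, -1.56 at LOC101929622, -1.53 at MIR4496, -1.51 at SLC25A1, -1.48 at MIR3621, -1.47 at CASC11, -1.45 at PRKAG2-AS1, -1.37 at LINC00254, -1.07 at AOX3P-AOX2P, -1.04 at PTPRN2-AS1 and -1.03 at MIR181A2HG. The call at MIR3621 was lost under DESeq2 and without any of 4 libraries, with -0.67 without the first IFN treated WT library. It was lost at AOX3P-AOX2P without the second IFN treated WT (-0.87), second untreated USP18-/- (-0.92) or first untreated WT library, and at PTPRN2-AS1 without the second IFN treated WT (-0.84), first untreated USP18-/- (-0.99) or second IFN treated USP18-/- library (-0.99).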

How the results depend on the processing

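Of 241 called effects at named windows, 145 were lost under none of the alternatives in which they were tested, and 0 reversed. Leaving out 1 library lost 76. Some alternatives tested fewer than the 241 effects, and an effect left untested there counts as not lost. With 1 window per chain 178 were kept and 4 lost. Fits of only the groups compared kept 200 and lost 3, and the filter of 30 counts kept 219. DESeq2 lost 33, the sum of counts 40, header totals 27, TMM on promoter windows 48, 10 Mb offsets 38, the filter of 30 counts 8 and no filter 8. DESeq2 called 21 lower differences of the IFN effects. Scaled by the sum of counts, IFN lowered 77 windows in USP18-/- cells (median -0.10), the genotype median without IFN was 0.15, with IFN 187 were higher and 270 lower (median 0.0649), and 52 differences of the IFN effects were lower (median -0.0933). Classes with more higher than lower windows then numbered 2 without IFN, 0 with IFN and 3 for the difference. Header totals gave a genotype median with IFN of 0.23. TMM on promoter windows gave 86 higher and 262 lower without IFN (median -0.0485) and 128 and 351 with IFN (median -0.0590), with 0 classes in favour of higher windows. The genotype balance thus turned with this scaling, and the cause was not tested. The filter of 30 counts, which tests fewer windows, left 141 higher without IFN. Without a fold threshold the higher and lower windows were 12 and 2 for IFN in WT, 497 and 298 in USP18-/- cells, 1123 and 290 for the genotype without IFN, 1200 and 357 with IFN, and 247 and 124 for the difference. With 1 window per chain 85 (without IFN) and 98 (with IFN) were lower, and differences were 50 higher and 20 lower. ISRE letters in the central 200 bp lay in 23.9% of raised windows. Without 1 library, higher and lower windows ranged over 5 to 8 and 0 to 1 (IFN in WT), 97 to 114 and 44 to 58 (IFN in USP18-/-), 186 to 234 and 127 to 134 (genotype without IFN), 323 to 423 and 146 to 173 (with IFN), and 59 to 82 and 25 to 41 (difference). Replicate numbers are shared by the groups but did not pair the libraries (correlations of 0.0011 to 0.0458). With the replicate block the counts were 7 and 0, 113 and 44, 210 and 133, 372 and 152, and 75 and 33. Windows at few tags limit the precision of the largest folds.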
